A study of Mus musculus with 10 samples.

Results

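The transcripts described here encode 10 transcription factors that effector T cells, natural killer (NK) cells and related innate lymphocytes depend on: Tbx21, Eomes, Tox, Tox2, Tcf7, Bcl11b, Runx3, Id2, Prdm1 and Gata3. They were chosen by symbol, as the rows of the count table whose Ensembl identifiers carry these names in GENCODE vM21, and all 10 were found among 17737 genes. Bulk RNA was sequenced from tumors grown from B16-F10, a mouse melanoma line derived from C57BL/6 mice, after the cells were placed under the skin of the right flank of C57BL/6 mice. The 5 D69A tumors (numbers 1 to 5) grew from cells overexpressing interleukin-18 (IL-18) with aspartate 69 replaced by alanine, and the 5 WT tumors (numbers 2 to 6) grew from cells overexpressing wild-type IL-18. All tumors were taken on day 11. No tumor of cells without IL-18 overexpression was analysed here, and the labels do not say whether each line was a clone or a pool, or whether each tumor came from its own mouse. The p-values therefore measure the spread between these samples.

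T-bet, encoded by Tbx21, and Eomesodermin, encoded by Eomes, are related T-box factors that drive interferon-gamma production, cytotoxicity and maturation in NK cells and cytotoxic T cells. TCF1 (Tcf7) keeps T cells in a memory-like, self-renewing state, whereas Blimp-1 (Prdm1) promotes terminal effector differentiation. TOX supports T cells under chronic stimulation and is needed for NK cell development. RUNX3 and BCL11B fix T lineage choices, ID2 blocks E proteins so that innate lymphocytes can form, and GATA3 acts in T cell development and type 2 responses. IL-18 signals through a receptor found on NK cells, effector T cells and some innate lymphocytes.

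The start regions of 4 of the factors are shown because their transcripts are compared below. The letters are the 250 bases before the RefSeq start on GRCm38.p6, written 5′ to 3′ on the strand of the gene. Capitals mark a match to a searched motif.
Tbx21, chr11:97115332-97115581, minus strand: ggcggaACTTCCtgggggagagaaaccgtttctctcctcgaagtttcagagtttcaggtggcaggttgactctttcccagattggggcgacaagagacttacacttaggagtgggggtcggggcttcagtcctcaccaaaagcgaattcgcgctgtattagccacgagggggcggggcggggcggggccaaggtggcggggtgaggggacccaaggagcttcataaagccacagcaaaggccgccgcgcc
Eomes, chr9:118477939-118478188, plus strand: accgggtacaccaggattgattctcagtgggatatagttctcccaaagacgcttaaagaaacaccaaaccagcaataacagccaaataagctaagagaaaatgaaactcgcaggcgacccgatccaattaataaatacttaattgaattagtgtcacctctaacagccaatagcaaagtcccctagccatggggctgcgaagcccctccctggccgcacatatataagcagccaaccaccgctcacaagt
Runx3, distal start, chr4:135120395-135120644, plus strand: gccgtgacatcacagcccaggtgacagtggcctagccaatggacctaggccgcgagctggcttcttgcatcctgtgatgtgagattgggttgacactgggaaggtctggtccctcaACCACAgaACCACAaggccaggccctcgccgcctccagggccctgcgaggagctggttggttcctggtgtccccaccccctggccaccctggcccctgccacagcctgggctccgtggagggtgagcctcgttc
Prdm1, chr10:44458749-44458998, minus strand: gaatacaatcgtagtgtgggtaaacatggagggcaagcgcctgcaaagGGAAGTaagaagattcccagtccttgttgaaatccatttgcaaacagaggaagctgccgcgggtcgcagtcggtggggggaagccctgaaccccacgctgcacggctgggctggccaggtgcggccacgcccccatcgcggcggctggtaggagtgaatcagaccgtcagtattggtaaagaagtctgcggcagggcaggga

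Several short motifs were searched on both strands in the promoter windows of the 9 members that matched the RefSeq table (all but Tox), and no searched motif overlapped another one in the windows shown. The Tbx21 window held 1 match to the ETS motif GGAAGT, at bases -244 to -239 from the start, where it reads on the opposite strand. The Prdm1 window held 1 match to the same motif at -202 to -197. This motif was present in 19.7% of all 32851 promoter windows of this length. The distal Runx3 window held 2 matches to the RUNX motif TGTGGT, both on the opposite strand, at -134 to -129 and -126 to -121, with 2 bases between them. This motif was present in 14.0% of all windows. The window of the other Runx3 start, chr4:135152295-135152544, held no match to any searched motif. The Eomes window held no match to any of the motifs, which also included the T-box motif GGTGTGA (3.33% of windows), the GATA motif AGATAA (9.99%), the TCF motif CTTTGA (13.8%) and the GAS motif TTCNNNGAA (7.02%). The windows also differed in base composition, with a GC content of 60.8% for Tbx21, 46.4% for Eomes, 65.2% for the distal Runx3 start and 59.2% for Prdm1, against a median of 52.4% over all windows. The outer end of the distal Runx3 window overlaps an exon of the long noncoding RNA Gm16225 on the other strand.

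The question put to the data was how transcripts of these factors differ between tumors whose introduced cytokine carries the substitution and tumors with the unaltered form. Total counts lay between 34400949 and 37578722 in D69A tumors and between 25904345 and 37556163 in WT tumors, with the lowest total in WT tumor 6. Levels are given as CPM, the share of a library's counts after scaling by edgeR's TMM factors. A floor of 3 counts corresponded to between 0.0798 and 0.116 CPM, here on total counts without TMM scaling. As a check of the labelled tissue, 12 melanocyte genes summed to between 25517 and 32750 CPM in D69A tumors and between 17344 and 21518 CPM in WT tumors.

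Transcripts of 8 of the 10 factors were lower in D69A tumors, Id2 did not pass the test, and Tox2 was too low to be tested. Lower transcripts included Tbx21, by 7.7-fold, and Eomes, by 4.64-fold, along with Tox, Bcl11b, Runx3, Gata3, Prdm1 and Tcf7. No member was higher by edgeR or DESeq2, and 0 were higher at an unadjusted p under 0.05. Of all 13798 genes tested, 24.7% were lower and 18.8% were higher in D69A tumors (edgeR, quasi-likelihood test, p adjusted by Benjamini-Hochberg over all tested genes, threshold 0.05). The median log2 fold change of the 9 tested members was -2.0, against 0.0024 for all tested genes. In 7 of the 9 members every D69A tumor lay below every WT tumor, a pattern shown by 17.4% of all tested genes. A tumor holds melanoma cells and host cells, and in these bulk samples fewer cells of a type and less RNA per cell cannot be told apart. Without the 3 tumors highest in skeletal muscle transcripts (D69A tumor 1 and WT tumors 3 and 4), 7 members were lower, and Tcf7 was the exception.

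**Figure D1:**
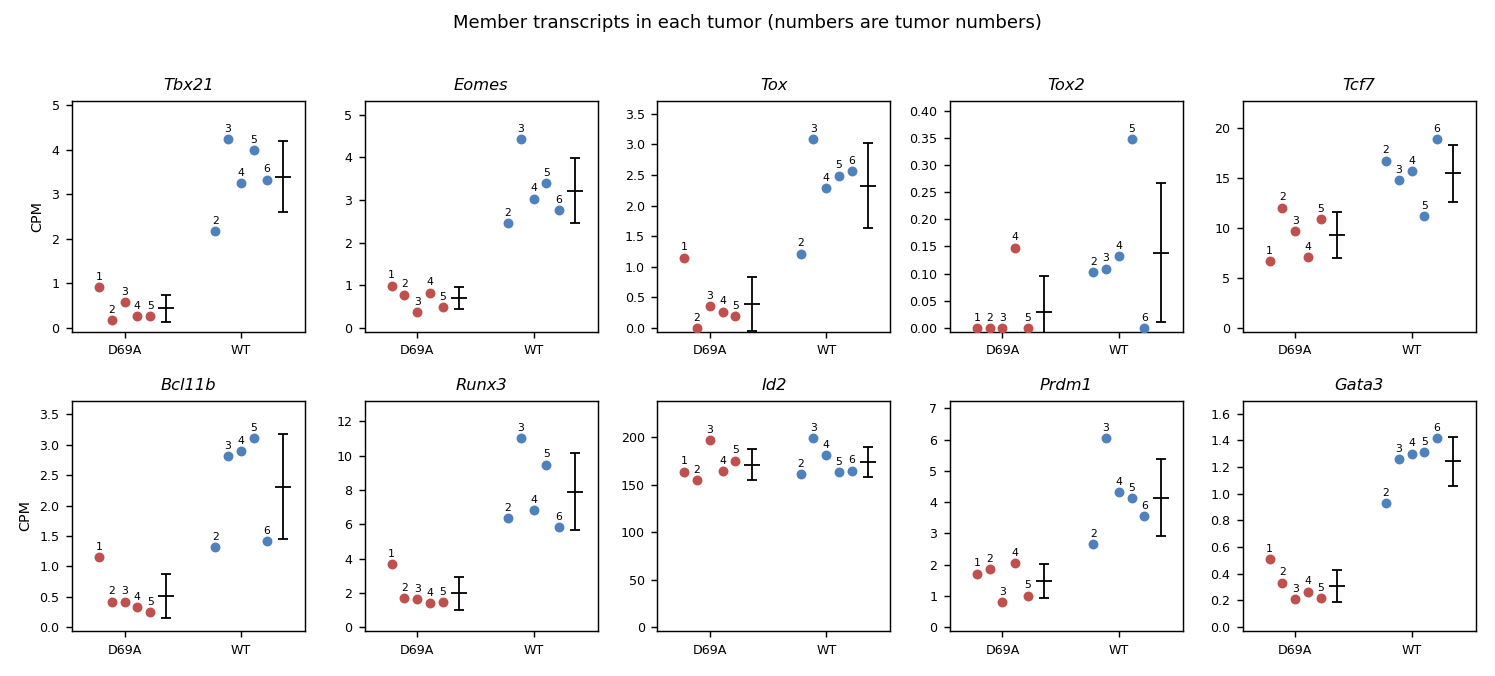
Transcript levels of the 10 factors in each tumor, in CPM on a linear axis of its own for each gene. Red points are the 5 D69A tumors and blue points the 5 WT tumors, each with its number, and the bars beside them give the mean and SD. The D69A points lie below all WT points for 7 genes, while Tcf7, Id2 and Tox2 overlap.

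Tbx21 encodes T-bet, a factor that helps IL-12 and IL-18 responsive lymphocytes turn on interferon-gamma. The gene lies on chromosome 11 at 97098071 to 97115331 (mm10, minus strand). Tbx21 stood at 0.909, 0.167, 0.571, 0.266 and 0.271 CPM in D69A tumors 1 to 5, against 2.17, 4.24, 3.24, 3.99 and 3.33 CPM in WT tumors 2 to 6. The groups did not overlap, and the highest D69A tumor was well below the lowest WT tumor. The means were 0.437 ± 0.304 CPM in D69A tumors and 3.39 ± 0.804 CPM in WT tumors (SD, n = 5 each). This gave a log2 fold change of -2.94 with an SE of 0.43 (edgeR, adjusted p = 0.00074), the lowest of the tested members, and 1.14% of all tested genes had a lower one.

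Eomes (chromosome 9, 118478212 to 118486132, plus strand) encodes the other T-box factor of the pair, which matures NK cells and acts in memory CD8 T cells. Its levels were 0.989, 0.780, 0.360, 0.828 and 0.489 CPM in D69A tumors and 2.45, 4.43, 3.03, 3.40 and 2.75 CPM in WT tumors. Again all D69A tumors lay below all WT tumors, and the highest tumor of each group was the same for both T-box genes: tumor 1 in D69A and tumor 3 in WT. Eomes averaged 0.689 ± 0.258 CPM in D69A tumors and 3.21 ± 0.763 CPM in WT tumors (SD, n = 5 each), with a log2 fold change of -2.21 (SE 0.30, edgeR, adjusted p = 0.000575). Of its exon bases, 2.8% are shared with Gm33460 on the opposite strand, and whether the authors' counting used strand is not given in the sources used here.

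Runx3 (chromosome 4, 135120652 to 135177990, plus strand) encodes a runt-domain factor that silences Cd4 in cytotoxic T cells and supports their residency in tissue. Runx3 stood at 3.66, 1.70, 1.65, 1.42 and 1.44 CPM in D69A tumors 1 to 5, and at 6.36, 11.0, 6.83, 9.48 and 5.85 CPM in WT tumors 2 to 6. D69A tumor 1 stood apart from the other four D69A tumors and still lay below every WT tumor. Runx3 had a log2 fold change of -2.0 (SE 0.30, edgeR, adjusted p = 0.000852) and means of 1.97 ± 0.952 CPM in D69A tumors and 7.90 ± 2.23 CPM in WT tumors (SD, n = 5 each).

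Bcl11b (chromosome 12, 107910403 to 108003602, minus strand) encodes a zinc-finger factor that commits thymic precursors to the T lineage and is also used by some innate lymphocytes. It stood at 1.15, 0.418, 0.420, 0.325 and 0.244 CPM in D69A tumors and at 1.32, 2.81, 2.89, 3.11 and 1.42 CPM in WT tumors. The groups nearly met, since D69A tumor 1 came close to WT tumor 2. Its log2 fold change was -2.17 (SE 0.45, edgeR, adjusted p = 0.00306), with means of 0.511 ± 0.364 CPM in D69A tumors and 2.31 ± 0.868 CPM in WT tumors (SD, n = 5 each).

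Gata3 (chromosome 2, 9857078 to 9890034, minus strand) encodes the zinc-finger factor that T cells and type 2 innate lymphocytes require. Gata3 stood at 0.508, 0.334, 0.210, 0.266 and 0.217 CPM in D69A tumors and at 0.930, 1.26, 1.30, 1.31 and 1.42 CPM in WT tumors, without overlap. It averaged 0.307 ± 0.123 CPM in D69A tumors and 1.24 ± 0.184 CPM in WT tumors (SD, n = 5 each), a log2 fold change of -2.0 (SE 0.29, edgeR, adjusted p = 0.000766). Of its exon bases, 1.9% are shared with 9230102O04Rik on the same strand and 3.9% with Gm13256 on the other. Gata3 had lower counts than Runx3 in every tumor, yet the 2 genes had the same fold change to the second decimal.

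Tox (chromosome 4, 6686353 to 6991557, minus strand) encodes an HMG-box factor of exhausted T cells and of NK cell development. Tox had 43, 0, 12, 9 and 7 counts in D69A tumors 1 to 5 and 47, 113, 86, 93 and 67 counts in WT tumors 2 to 6. That equals 1.15, 0, 0.360, 0.266 and 0.190 CPM in D69A tumors and 1.21, 3.09, 2.28, 2.49 and 2.56 CPM in WT tumors. The groups did not overlap, but D69A tumor 1 came within a small margin of WT tumor 2. The 0 counts in D69A tumor 2 allow a level of up to 0.0825 CPM on its total counts without TMM scaling. The log2 fold change was -2.55 with an SE of 0.70, the widest among the tested members (95% interval -4.09 to -1.0, edgeR, adjusted p = 0.0136). Leaving out D69A tumor 1 moved it to -3.49. The exons share 3.4% of their bases with Gm11802 on the opposite strand.

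Tox2 (chromosome 2, 163203125 to 163324170, plus strand), a paralog that also acts in exhausted T cells, was almost absent from the counts. It had 0, 0, 0, 5 and 0 counts in D69A tumors 1 to 5 and 4, 4, 5, 13 and 0 counts in WT tumors 2 to 6. The sums were 5 counts over the D69A tumors and 26 over the WT tumors. With a tumor at 0 counts in each group the ranges overlapped, and no test was made at this depth.

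Prdm1 (chromosome 10, 44437177 to 44528501, minus strand) encodes Blimp-1, a transcriptional repressor active in terminal effector cells. Macrophages and other cells also express it. Prdm1 stood at 1.71, 1.87, 0.811, 2.04 and 1.0 CPM in D69A tumors and at 2.66, 6.04, 4.33, 4.12 and 3.56 CPM in WT tumors. The groups were separate, and D69A tumor 1 was not the highest of its group for this gene. Its log2 fold change was -1.48 (SE 0.30, edgeR, adjusted p = 0.00299), with means of 1.49 ± 0.546 CPM in D69A tumors and 4.14 ± 1.24 CPM in WT tumors (SD, n = 5 each).

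Tcf7 (chromosome 11, 52252371 to 52283014, minus strand) encodes TCF1, the Wnt-pathway factor of naive and memory-like T cells. Tcf7 stood at 6.68, 12.0, 9.67, 7.07 and 10.9 CPM in D69A tumors and at 16.7, 14.8, 15.6, 11.2 and 18.9 CPM in WT tumors. D69A tumor 2 lay above WT tumor 5, so the groups overlapped, and D69A tumor 1, high for the T-box genes, was the lowest of its group. For Tcf7 the log2 fold change was -0.74 (SE 0.19, 95% interval -1.15 to -0.32, edgeR, adjusted p = 0.00964), the smallest among the members that passed. Without the 3 tumors highest in muscle transcripts it was -0.65 and did not pass (edgeR, adjusted p = 0.0601).

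Id2 (chromosome 12, 25093799 to 25097140, minus strand) encodes an inhibitor of E proteins that NK cells and effector T cells need, and many other cell types express it. Id2 stood at 164, 155, 197, 164 and 175 CPM in D69A tumors and at 161, 199, 181, 163 and 165 CPM in WT tumors. Both groups covered about the same range, with means of 171 ± 16.4 CPM in D69A tumors and 174 ± 16.1 CPM in WT tumors (SD, n = 5 each). This gave a log2 fold change of -0.03 (95% interval -0.20 to 0.15, edgeR, adjusted p = 0.825). Which cells of the tumor the Id2 transcripts came from was not measured.

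The factors also differed in how abundant they were, compared here as TPM, which also divides by exon length. In D69A tumors Id2 averaged 234 ± 15.2 TPM and Tcf7 11.8 ± 2.93 TPM, while the mean of each other factor was at most 1.33 TPM, the level of Runx3. In WT tumors Id2 averaged 238 ± 21.5 TPM and Tcf7 19.6 ± 3.80 TPM (SD, n = 5 each). Id2 and Tcf7 were thus set apart from the other factors in both groups, without overlapping ranges. Below them in D69A tumors came Runx3 (1.33 ± 0.689 TPM), Prdm1 (0.898 ± 0.345), Tbx21 (0.590 ± 0.426) and Eomes (0.560 ± 0.224), neighbours whose ranges overlapped. Gata3 (0.261 ± 0.113 TPM), Bcl11b (0.214 ± 0.160) and Tox (0.175 ± 0.205) followed in D69A tumors, also with overlapping ranges. Below Id2 and Tcf7 in WT tumors came Runx3 (5.26 ± 1.45 TPM), Tbx21 (4.54 ± 1.04), Eomes (2.57 ± 0.599) and Prdm1 (2.47 ± 0.730), again each overlapping its neighbour. Gata3 (1.04 ± 0.149 TPM), Tox (1.02 ± 0.298) and Bcl11b (0.945 ± 0.345) could not be ordered in WT tumors beyond their spread. Tox2 was lowest in both groups, at 0.0291 ± 0.0650 TPM in D69A tumors and 0.135 ± 0.123 TPM in WT tumors (SD, n = 5 each).

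Within each group the same tumors tended to be at the ends. D69A tumor 1 had the highest CPM of its group for 6 of the 9 tested members. WT tumor 3 had the highest CPM of its group for 6 of 9, and WT tumor 2 the lowest for 7 of 9. Summed transcripts of 24 T and NK cell marker genes, none of them a member, were also highest within the D69A group in tumor 1 (50.1 CPM) and lowest within the WT group in tumor 2 (83.6 CPM). In WT tumor 3 they were at 209.7 CPM, second to WT tumor 5 at 221.3 CPM. All 12 T cell markers and all 12 NK cell markers were lower in D69A tumors. The T cell markers summed to 15.5 ± 7.12 CPM in D69A tumors and 79.7 ± 32.5 CPM in WT tumors, and the NK cell markers to 11.8 ± 6.04 CPM in D69A tumors and 76.9 ± 28.5 CPM in WT tumors (SD, n = 5 each). Together they were 5.72-fold lower in D69A tumors, and 15 pan-leukocyte genes were 4.03-fold lower by sum.

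Within groups, 7 of the 9 tested members followed the log2 level of the marker sum. Their Pearson's r over 10 tumors lay between 0.50 for Tox and 0.94 for Bcl11b. Id2 did not follow it (r = 0.04), and Tcf7 ran in the opposite direction (r = -0.69). The share of all tested genes with an r in this range was not counted. These values are a description, since all levels of a tumor share 1 library.

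Because lymphocyte marker transcripts were lower in D69A tumors as well, the members were also compared per lymphocyte marker transcript, with the summed counts of the 24 T and NK cell genes as each tumor's library size. On this scale 6 of the 9 tested members, among them Tbx21 and Eomes, did not pass the test, none was lower (0 at an unadjusted p under 0.05 either, edgeR), and Tcf7, Id2 and Prdm1 were higher in D69A tumors. A scale that divides by lymphocyte transcripts lifts nearly every other gene, and 88.5% of all tested genes were higher on it and 0.232% lower (edgeR with Benjamini-Hochberg adjustment over all tested genes). The median log2 fold change on this scale was 0.39 for the tested members and 2.50 for all tested genes. The summed marker counts were between 644 and 1876 in D69A tumors and between 2805 and 8265 in WT tumors, so the D69A values rest on fewer counts.

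**Figure D2:**
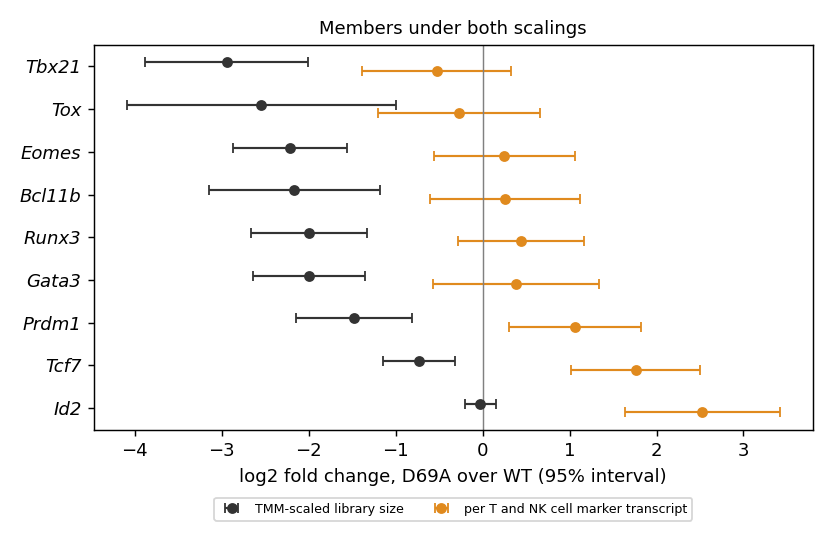
Log2 fold changes of D69A over WT for the 9 tested factors with their 95% intervals, on library size scaled by TMM (black) and per T and NK cell marker transcript (orange). On the first scale 8 intervals lie below 0, and on the second 6 include 0 while those of Prdm1, Tcf7 and Id2 lie above it.

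Tbx21 had 18.1, 6.54, 28.9, 11.1 and 15.5 counts per 1000 marker counts in D69A tumors, against 25.9, 20.2, 20.1, 18.0 and 31.0 in WT tumors. The groups overlapped through D69A tumors 1 and 3. The log2 fold change on this scale was -0.53 (95% interval -1.39 to 0.33, edgeR, adjusted p = 0.244), and with 15 pan-leukocyte genes as the library size it was -1.07 and passed (edgeR, adjusted p = 0.0123). Eomes had 19.7, 30.5, 18.2, 34.7 and 28.0 counts per 1000 in D69A tumors and 29.3, 21.1, 18.8, 15.4 and 25.7 in WT tumors. These ranges lay over each other, with a log2 fold change of 0.25 (95% interval -0.56 to 1.06, edgeR, adjusted p = 0.567).

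Of the factors tied to T lineage and residency, Runx3 averaged 73.0 ± 10.3 counts per 1000 marker counts in D69A tumors and 53.7 ± 13.6 in WT tumors (SD, n = 5 each), and the fold change on this scale was 0.44 in log2 units (95% interval -0.28 to 1.17). Bcl11b averaged 17.6 ± 4.26 in D69A tumors and 14.9 ± 2.01 in WT tumors, with a log2 fold change of 0.26 (95% interval -0.60 to 1.12). Gata3 averaged 11.5 ± 1.23 in D69A tumors and 8.86 ± 3.21 in WT tumors, with a log2 fold change of 0.39 (95% interval -0.57 to 1.34). Tox averaged 12.6 ± 8.69 in D69A tumors and 15.7 ± 4.78 in WT tumors, with a log2 fold change of -0.27 (95% interval -1.20 to 0.66). None of these 4 passed the test (edgeR, adjusted p between 0.246 for Runx3 and 0.585 for Tox). Each interval reaches past a change of 2-fold in one direction, so equal levels per lymphocyte transcript were not shown.

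Prdm1 had 34.1, 73.0, 41.0, 85.4 and 57.5 counts per 1000 marker counts in D69A tumors, against 31.8, 28.8, 26.9, 18.6 and 33.2 in WT tumors. Every D69A tumor lay above every WT tumor, D69A tumor 1 narrowly, and the log2 fold change was 1.06 (SE 0.39, edgeR, adjusted p = 0.00786). Against the pan-leukocyte genes it was 0.51 and did not pass (edgeR, adjusted p = 0.150). Tcf7 had 133, 469, 489, 296 and 623 counts per 1000 in D69A tumors, against 200, 70.5, 97.2, 50.5 and 176 in WT tumors. Of the D69A tumors, 4 lay above all WT tumors and tumor 1 lay among them, with a log2 fold change of 1.76 (SE 0.38, edgeR, adjusted p = 8.22e-06). Id2 had between 3267 and 10034 counts per 1000 in D69A tumors and between 738 and 1928 in WT tumors, a log2 fold change of 2.53 (SE 0.45, edgeR, adjusted p = 1.49e-07). Within groups Id2 did not follow the marker sum and Tcf7 ran opposite to it. The Id2 value is close to the median of all tested genes on this scale. That median was 2.50, and the Prdm1 and Tcf7 values lie below it, so both rose less than the median gene. The share of all genes with separate groups on this scale was not counted.

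**Figure D3:**
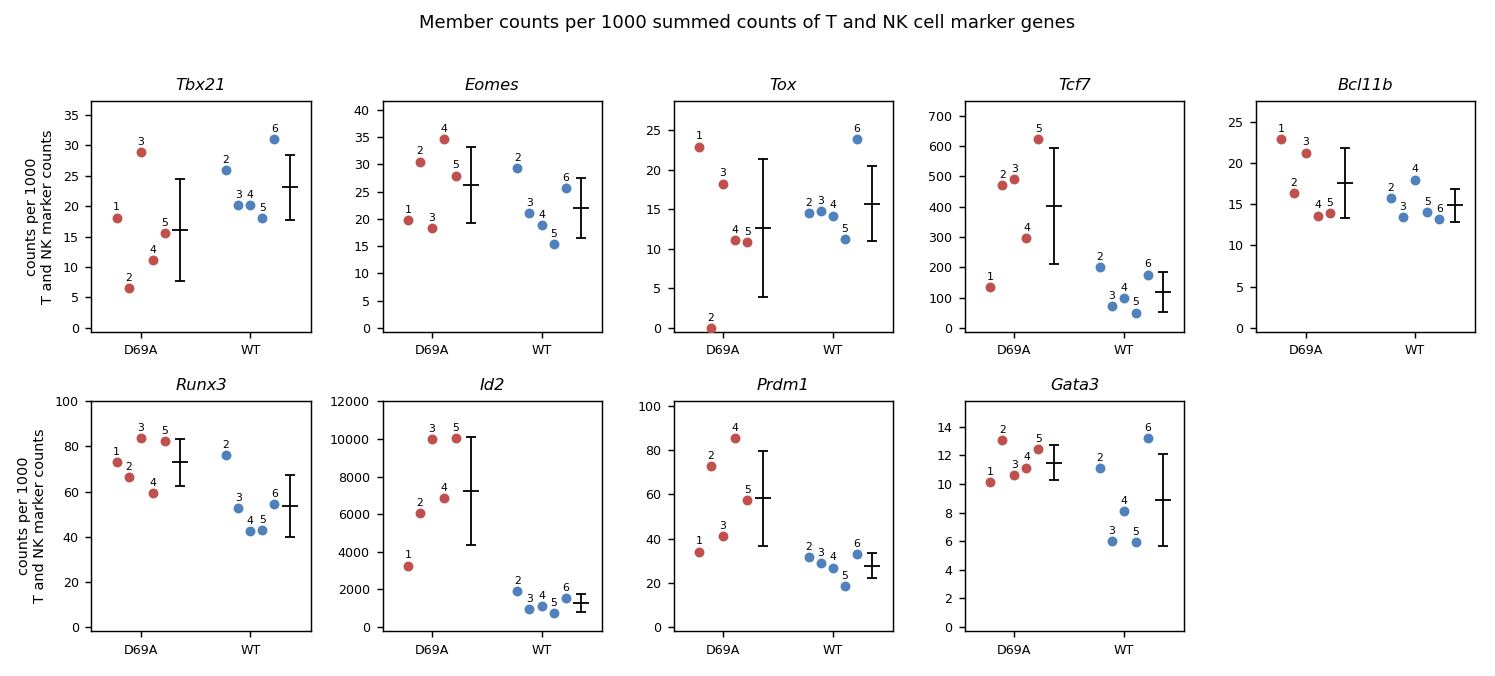
Counts of the 9 tested factors per 1000 summed counts of 24 T and NK cell marker genes, on a linear axis of its own for each gene. Red points are D69A tumors and blue points WT tumors, each with its number, and bars give the mean and SD. The groups overlap for Tbx21, Eomes, Tox, Bcl11b, Runx3 and Gata3, and also for Tcf7 through D69A tumor 1.

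Library size enters ratios between factors within a tumor only through the prior count of 2 in log2 CPM, and 4 ratios were examined. The exact permutation test was two-sided, covered 252 assignments of tumors to groups and can give no p below 0.00794. The log2 ratio of Tbx21 to Eomes was -0.72 ± 1.0 in D69A tumors and 0.07 ± 0.19 in WT tumors (SD, n = 5 each). In D69A tumors it spread from -1.90 to 0.59, which enclosed the narrow WT range of -0.17 to 0.27 (exact permutation p = 0.135, adjusted 0.135). The log2 ratio of Gata3 to Tbx21 was -0.29 ± 0.78 in D69A tumors and -1.39 ± 0.24 in WT tumors, higher in 4 of the 5 D69A tumors than in any WT tumor (exact permutation p = 0.0238, adjusted over the 4 ratios 0.0635). The log2 ratio of Tox to Tcf7 was -4.94 ± 1.91 in D69A tumors and -2.74 ± 0.63 in WT tumors, and the lowest ratio belonged to D69A tumor 2, where Tox had 0 counts (exact permutation p = 0.0317, adjusted 0.0635). The ratio of that tumor rests on the prior count. The Tox to Tcf7 difference, D69A minus WT, was -2.20, and -2.71 with a prior count of 0.5. The log2 ratio of Prdm1 to Tcf7 was -2.64 ± 0.79 in D69A tumors and -1.91 ± 0.59 in WT tumors (exact permutation p = 0.135, adjusted 0.135). None of the 4 ratios passed after adjustment.

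Other transcription factors of lymphocytes went in both directions. Of 36 listed, 34 were tested, 22 were lower, 2 were higher and 10 did not pass, with a median log2 fold change of -0.65. Stat4, which carries the IL-12 signal upstream of T-bet, averaged 1.98 ± 0.770 CPM in D69A tumors and 12.0 ± 5.07 CPM in WT tumors, a log2 fold change of -2.59 (SE 0.34, edgeR, adjusted p = 0.000547). Ikzf1, which encodes the lymphoid factor Ikaros, fell by 2.24 on the log2 scale, its relative Ikzf2 (Helios) fell by 1.94, and Hopx, a homeobox protein of effector cells, fell by 1.98. The 2 that were higher, named after their values were seen, were the nuclear receptor gene Nr4a3 (408 ± 120.5 CPM in D69A tumors and 264 ± 26.3 CPM in WT tumors) and Nfatc2 (153 ± 8.15 CPM in D69A tumors and 111 ± 11.4 CPM in WT tumors). Several of these genes are also expressed outside lymphocytes, and their cell source was not measured.

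Paralogs of the members gave a mixed picture. Of 32 listed, 21 were tested, 8 were lower, 2 were higher and 11 did not pass, with a median log2 fold change of -0.06. Bcl11a, the B cell and dendritic cell relative of Bcl11b, averaged 0.849 ± 0.445 CPM in D69A tumors and 3.66 ± 1.64 CPM in WT tumors, a log2 fold change of -2.10 (SE 0.41, edgeR, adjusted p = 0.00226). Id3, the relative of Id2 that marks memory-like T cells, averaged 2.48 ± 0.751 CPM in D69A tumors and 6.53 ± 3.18 CPM in WT tumors and fell by 1.40 on the log2 scale. Tbx18, a T-box gene of mesenchymal cells, fell by 2.02. The higher ones were Prdm16, known from brown fat and stem cells, at 232 ± 15.2 CPM in D69A tumors and 155.6 ± 23.4 CPM in WT tumors (log2 fold change 0.58), and Tbx4, a limb and lung T-box gene named after its value was seen (log2 fold change 0.38).

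Partners and cofactors, proteins through which the members act, mostly did not pass the test or were slightly higher. All 20 were tested, 2 were lower, 8 were higher and 10 did not pass, with a median log2 fold change of 0.13. Ctnnb1, which encodes beta-catenin, the coactivator of TCF1, stood at 1736 ± 152 CPM in D69A tumors and 1130 ± 103 CPM in WT tumors, a log2 fold change of 0.62 (SE 0.08, edgeR, adjusted p = 0.000567). Tcf12, an E protein of the kind ID2 binds, rose by 0.45, and Chd4, the NuRD remodeller, by 0.29. The TLE corepressors Tle3 and Tle2 were the 2 that fell, by 0.75 and by 1.52 on the log2 scale, Tle2 being named after its value was seen.

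**Figure D4:**
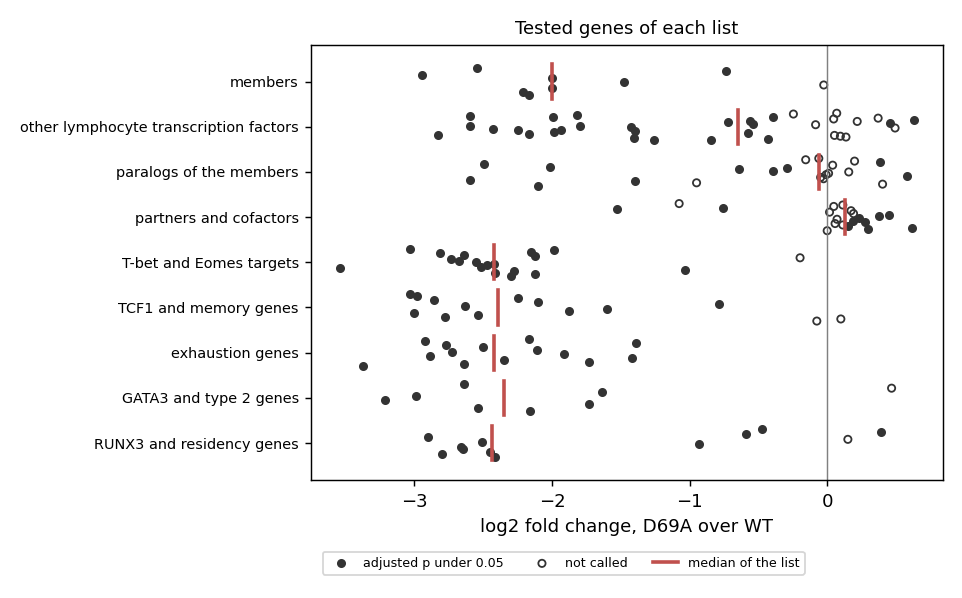
Log2 fold changes of D69A over WT for every tested gene of the members and of 8 related lists, with filled points past an adjusted p of 0.05, open points not past it and a red line at the median. The medians of the target and state lists lie between -2.43 and -2.35, that of the members at -2.0, and those of paralogs and cofactors near 0.

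Genes that the factors are known to act on were lower nearly throughout. Of 20 listed targets of T-bet and Eomes, 19 were tested, 18 were lower and 1 did not pass, with a median log2 fold change of -2.42. Xcl1, a chemokine of NK and CD8 T cells, averaged 0.336 ± 0.0978 CPM in D69A tumors and 2.77 ± 0.838 CPM in WT tumors, a log2 fold change of -3.03 (SE 0.30, edgeR, adjusted p = 0.000341). Il2rb, the IL-2 and IL-15 receptor chain activated by both T-box factors, stood at 5.83 ± 2.96 CPM in D69A tumors and 38.8 ± 13.0 CPM in WT tumors (log2 fold change -2.73). The IL-18 receptor chains Il18r1 and Il18rap fell by 2.55 and 2.68 on the log2 scale. The exception, named after its value was seen, was the integrin gene Itga4, at 70.2 ± 6.87 CPM in D69A tumors and 80.4 ± 10.5 CPM in WT tumors (edgeR, adjusted p = 0.125). Per T and NK cell marker transcript, 2 of the 19 were higher, the others did not pass and the median log2 fold change was 0.07. Klrd1 and Nkg7 of this list are among the marker genes that set this scale, so they are partly divided by themselves. Of all tested genes, 0.232% were lower on this scale and 88.5% higher, so losing the lower calls is not particular to this list.

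Genes tied to TCF1 and memory cells included 14 tested, of which 12 were lower, 2 did not pass and the median log2 fold change was -2.39. Cd27 fell by 2.54 on the log2 scale, and Traf1, a signalling adaptor of TNF receptors, had a log2 fold change of -2.98. The 2 that did not pass, named after their values were seen, were the Wnt target Axin2 (log2 fold change -0.08) and Bcl2 (0.10). All 14 listed exhaustion genes were lower, with a median of -2.42, among them Pdcd1, which encodes PD-1 (-2.77), the receptors Cd244a (-2.35) and Cd200r1 (-1.73), and the signalling regulator Rgs16 (-1.39). Rgs16 was abundant for this list, at 13.3 ± 1.81 CPM in D69A tumors and 34.7 ± 7.45 CPM in WT tumors. Per T and NK cell marker transcript no lower call remained in either list: 4 of the 14 TCF1 and memory genes were higher (median log2 fold change 0.22), as were 3 of the 14 exhaustion genes (median 0.08), and the others did not pass. Cd28 of the memory list and Cd160 of the exhaustion list are themselves among the marker genes that set this scale. Of all tested genes, 0.232% were lower on it and 88.5% higher.

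Of 14 genes tied to GATA3 and type 2 responses, 8 were tested, 7 were lower and 1 did not pass, with a median log2 fold change of -2.35. Icos, a costimulatory receptor, stood at 1.12 ± 0.854 CPM in D69A tumors and 10.4 ± 5.11 CPM in WT tumors (log2 fold change -3.22). Il1rl1, the IL-33 receptor, stood at 2.12 ± 0.564 CPM in D69A tumors and 6.59 ± 1.6 CPM in WT tumors (-1.64), and Klrg1, an inhibitory receptor of mature effector cells, fell by 2.64. The gene that did not pass was Il4, named after its value was seen, at 1.23 ± 0.155 CPM in D69A tumors and 0.889 ± 0.123 CPM in WT tumors (edgeR, adjusted p = 0.0761). Of 12 genes tied to RUNX3 and tissue residency, all were tested, 10 were lower, 1 was higher and 1 did not pass, with a median of -2.43. The early activation gene Cd69 fell by 2.80, Cd7 by 2.45 and the chemokine gene Ccl5 by 2.41 on the log2 scale. Csf1, a macrophage growth factor, fell by 0.93. Tgfbr1, a TGF-beta receptor, was higher (log2 fold change 0.39) and the integrin gene Itga1 did not pass (0.15), both named after their values were seen. Per T and NK cell marker transcript these 2 lists kept no lower call either, with 3 of the 8 tested genes tied to GATA3 higher (median 0.11) and 5 of the 12 tied to RUNX3 higher (median 0.09). The shares over all tested genes on this scale were 0.232% lower and 88.5% higher.

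Transcripts of other cell types differed as well. Of 15 macrophage and monocyte genes 12 were lower (median log2 fold change -1.62), of 10 dendritic cell genes 10 (-2.45), of 10 fibroblast genes 9 (-2.34) and of 10 endothelial genes 10 (-0.85). Of 6 tested B and plasma cell genes 2 were lower (median -0.54), as were all 5 tested neutrophil and mast cell genes (-2.14) and 2 of 3 tested keratinocyte genes (-1.59). None of 12 skeletal muscle genes passed (edgeR, 0 at an unadjusted p under 0.05), although their median log2 fold change was -2.03. Their sum ranged widely, from 15.5 to 689 CPM in D69A tumors and from 16.2 to 2009 CPM in WT tumors. Of 12 melanocyte genes 8 were higher and the other 4 did not pass (median 0.48). Prdm1, Id2, Runx3 and Tcf7 are known outside T and NK cells too, and the part of these other cell types in the members' levels was not tested.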

How the data were processed

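The deposited table held whole-number counts per gene without scaling to depth. Fastp, HISAT, Bowtie, RSEM and the build mm10 are named, per the submitters' processing notes. The sources used here give neither versions, annotation, strand use nor what each tool did. Because RSEM estimates counts, the deposited values may have been rounded. All 10 columns were assigned to tumors by name. Any pair of tumors within a group differed by more than counting noise (smallest chi-square per degree of freedom 13.9).

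Low genes were removed with edgeR's filterByExpr, libraries were scaled by TMM (factors 0.951 to 1.03), and groups were compared with glmQLFit and glmQLFTest, the quasi-likelihood test of edgeR (version 4.0.16, limma 3.58.1, R 4.3.3) over 13798 genes at an adjusted p of 0.05. Log2 CPM used a prior count of 2. SEs were derived from the F statistic. Floors of 3 counts cover counting error only. A second fit used summed counts of 12 T cell and 12 NK cell genes as library size. TPM used the union of GENCODE vM21 exons. Promoters came from RefSeq tables.

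The members, lists and alternatives were chosen with earlier results of these data known. Named genes were all members, the 4 genes of each related list with the smallest p, and the 3 genes most like each tested member. A gene that this rule names is not reported here. Alternatives were DESeq2 1.42.0, limma-voom, RLE, upper quartile and library size scaling, other filters, a prior count of 0.5, an adjusted p of 0.01, other yardstick genes, the replicate number as a block, leaving out each tumor, and leaving out the 3 tumors highest in muscle transcripts, which for the second fit was added after the data were seen.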

Additional observations from a re-analysis of the deposited data

Results flagged for a closer look

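Each group of 5 tumors was examined for a tumor whose distance from its nearest neighbour exceeded 0.71 of the group's range (Dixon's criterion), which chance gives in about 1 group in 20. Of 54 groups, 7 were marked, and 4 of these concern D69A tumor 1. Bcl11b in D69A tumor 1 stood at 1.15 CPM, with the nearest D69A tumor at 0.420 CPM. Runx3 in D69A tumor 1 stood at 3.66 CPM, with the nearest at 1.70 CPM. The summed NK cell markers of the same tumor stood at 22.4 CPM, with the nearest at 10.6 CPM, and its summed pan-leukocyte genes at 616.2 CPM, with the nearest at 351.5 CPM. Without D69A tumor 1 the log2 fold change of Bcl11b was -2.69, and its call held. Tox2 was marked for D69A tumor 4, at 0.148 CPM and at 6.19 counts per 1000 T and NK cell marker counts, because the other D69A tumors had 0 counts. Tox per 1000 marker counts was marked for WT tumor 6, at 23.9, with the nearest WT tumor at 14.7.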

How the results depend on the processing

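Between 7 and 8 members were lower in D69A tumors under every alternative run, including DESeq2, limma-voom and leaving out each tumor (8 each time). With a filter of at least 1 CPM in 5 tumors, 7 were lower and Gata3 was no longer tested. The call of Tcf7 did not hold with the replicate number as a block (log2 fold change -0.57, edgeR, adjusted p = 0.0545) or without the 3 muscle-high tumors (-0.65), and that of Tox did not hold at an adjusted p of 0.01. Id2 changed sign without the 3 muscle-high tumors (0.085) and ranged from -0.049 to 0.038 when each tumor was left out. Of all genes, 2594 were higher in D69A tumors, against 1334 at an adjusted p of 0.01 and 1727 without the 3 muscle-high tumors. With pan-leukocyte genes as library size 1 member was lower (Tbx21), and the signs of Eomes (-0.29), Bcl11b (-0.29), Runx3 (-0.11) and Gata3 (-0.15) turned, none of the 4 past the threshold. The log2 fold change of Tox per T and NK cell marker transcript ranged from -0.68 to 0.046 when each tumor was left out, and turned without D69A tumor 2. Differences in log2 ratio ranged from -1.12 to -0.50 for Tbx21 to Eomes, from -2.81 to -1.50 for Tox to Tcf7, from -0.95 to -0.52 for Prdm1 to Tcf7 and from 0.82 to 1.33 for Gata3 to Tbx21. Tox to Tcf7 passed without D69A tumor 1, Gata3 to Tbx21 without D69A tumor 1 or 3, and Tbx21 to Eomes without D69A tumor 3. The cause of these changes was not tested. No label says that the tumor numbers pair the groups, the correlations of same-numbered tumors ran from -0.42 to 0.20, and 3 of the 8 tumors with a shared number correlated best with their own number. With the replicate block 7 members were lower, and over all genes 3218 were lower and 2246 higher.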

Other observations

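For each tested member, the genes whose log2 CPM followed it most closely within groups (highest Pearson's r after group means were taken off, over 10 tumors, among genes with a mean of at least 1 CPM) were listed as a description, with no test. Their r lay between 0.897 and 0.984. The values compared share library depth and the abundance of host cells. Bcl11b was followed most closely by Cd3d, a chain of the T cell receptor complex. The genes closest to Eomes were Sirpb1c, Scimp and Ctss, those closest to Runx3 were Fam78a, Cnr2 and Tmem119, and those closest to Prdm1 were Camk2b, Aida and Clec7a. Scimp, Ctss and Clec7a are known from antigen-presenting and myeloid cells. Gata3 was followed by Ddx58, Ifi44 and Rtp4, which are interferon-induced genes. Tbx21 was followed by Emp2, Prickle3 and Klra4, the last an NK cell receptor gene, and Tox by Sec16b, Tbx21 and Trmt1l. For Tox, with 0 counts in D69A tumor 2, Spearman's rank correlation was lower for Sec16b (0.77) and Trmt1l (0.62) than for Tbx21 (0.95). These 3 were the highest by Pearson's r of 12225 candidate genes. Tcf7 was followed by Mbtps1, Chd1l and Klhl8, and Id2 by Nova2, Mrpl54 and Nsa2, none of them a lymphocyte marker on the lists used here.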
